A study of Mus musculus with 250 samples.

Results

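Serpina3n-positive cells were set against the other cells of plate 3, a set of 88 of the 250 single mouse brain cells profiled, which the titles call astrocytes. A cell was called positive when Serpina3n reached 10 CPM, the gene's share of the cell's counted reads scaled to 1000000. The groups were thus chosen by the Serpina3n counts of these same cells. By this rule 46 cells were positive and 42 were not, and the latter are called the other cells here. The 162 cells of plate 2, split in the same way into 18 positive and 144 other cells, served only as a check, since the plates share no cells. All cells came from brains of adult C57BL/6 mice, about 3 months old, of genotype SM22-Cre;Rosa26-stop-tdTomato. Cre is driven by the promoter of Tagln, a smooth muscle gene whose protein is SM22, and removes a stop before the red fluorescent protein tdTomato. Positive and other cells share this genotype, strain, tissue and age, and no treatment is labelled. Single cells were sorted by fluorescence into the wells of plates and read as full-length cDNA with Smart-seq2, a method without molecular identifiers. The sort gate was not given in the sources used here. Plates are named after the number in the cells' column names, which carry the prefix VSMC although the titles say astrocyte.

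No label names an animal. A plate's cells therefore count as 1 sample, and cells are not replicates. No test was therefore made between positive and other cells. Means are given ± SD between cells and are taken over all cells of a group, those without a read included. Detection of a gene means a level of at least 10 CPM. Exact (Clopper-Pearson) 95% intervals are given for shares of cells and exact Poisson intervals for summed reads. They cover counting error alone, because PCR copies are not independent molecules.

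Serpina3n encodes a secreted inhibitor of serine proteases, one of the mouse counterparts of human alpha-1-antichymotrypsin. It belongs to a cluster of closely related genes on chromosome 12 that arose by duplication. In the brain it is best known as a gene that astrocytes switch on after injury or inflammation, downstream of IL-6 family cytokines acting through STAT3 and of NF-kB, and it is widely used as a marker of reactive astrocytes. Glucocorticoids are also known to raise it.

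Serpina3n divided the cells of plate 3 into clearly separate levels. The positive cells were 52.3% of the plate (41.4 to 63.0%), with a lowest value of 32.9 CPM, a median of 480 and a highest of 1339 (mean 507 ± 331, n = 46 cells). Of the other cells, 35 had no Serpina3n read and 7 had 1 read each, which came to between 2.35 and 2.82 CPM. No cell lay between 2.82 and 32.9 CPM, so the cell just inside the threshold and those just outside it were far apart, and the next positive cell had 44.5 CPM. Among the positive cells, 3 had less than 100 CPM, 22 had 100 to 500, 17 had 500 to 1000 and 4 had 1000 or more. Their reads of the gene ranged from 10 to 507 per cell with a median of 150. They held 8322 of the plate's Serpina3n reads (99.9%) against 7 in the other cells. These values chose the groups and are a description only.

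On plate 2 fewer cells were positive, and the gap at the threshold was narrower. There, 18 of 162 cells were positive (11.1%, 6.72 to 17.0%), with 15.9 CPM as the lowest value, 424 as the median and 918 as the highest (mean 396 ± 252). A further 131 cells had no read and 13 had 2.69 to 7.76 CPM. The highest of these had 2 reads, while the 2 lowest positive cells had 4 reads (15.9 CPM) and 3 reads (18.7 CPM). The clear separation of plate 3 was thus not seen there. The positive cells of both plates therefore overlapped in level, while the share of positive cells was higher on plate 3.

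**Figure D1:**
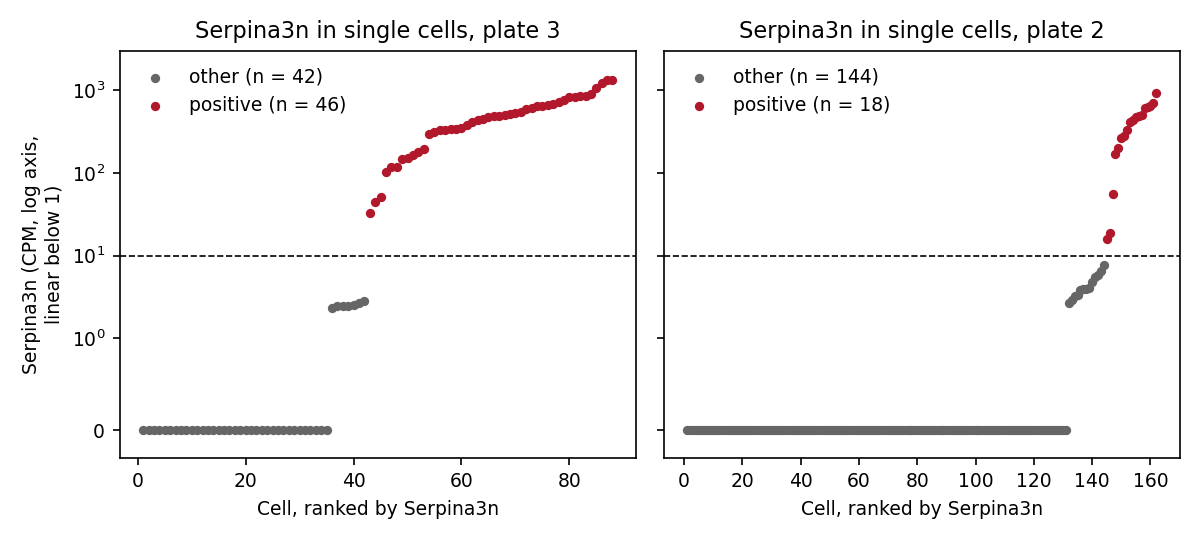
Serpina3n in each cell of plate 3 (left) and plate 2 (right), ranked from low to high; the vertical axis is CPM on a log axis that is linear below 1, and the dashed line is the 10 CPM threshold. On plate 3 the 46 positive cells (red) lie between 32.9 and 1339 CPM and the 42 other cells (grey) at 2.82 CPM or less.

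Positive cells lay all over plate 3, although not evenly. They occurred in all 16 rows of wells and in 22 of the 23 well columns that held a cell. In columns 1 to 12, 17 of 43 cells were positive (39.5%, 25.0 to 55.6%), and in columns 13 to 24, 29 of 45 were (64.4%, 48.8 to 78.1%). Rows A to H had 24 positive of 46 cells and rows I to P had 22 of 42. The part of the well column in any result was not tested.

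Depth was alike in both groups. The positive cells had a median of 391072 counted reads (116316 to 564958) and the other cells 388858 (126083 to 542896). The positive cells had more genes at 10 CPM or more, with a median of 2557 (1635 to 3162) against 2381.5 (1412 to 2844), a difference of 175.5 genes. After each cell was thinned to 100000 reads the medians were 2730.5 and 2578.5, a difference of 152. At that depth a single read already reaches 10 CPM, so these medians count any read and are not comparable with those before thinning. On plate 2 the medians without thinning were 2359 and 2367. Malat1, an abundant noncoding RNA of the nucleus, averaged 28712 ± 20341 CPM in the positive cells and 40818 ± 25703 in the other cells of plate 3, and 34043 against 31499 CPM on plate 2. The part of gene number and of Malat1 in the results below was not tested.

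Both groups carried the markers of astrocytes. All 16 markers listed for the cell type were measured well enough to compare, and none differed 2-fold under the settings used here. Gfap and Gjb6 did under 1 of 11 other settings and S100b under 2. Every positive cell had at least 11 of them at 10 CPM and every other cell at least 12, with a median of 15 in both. Their summed level was 57340 ± 7662 CPM in the positive cells (30285 to 70922) and 53829 ± 10914 in the other cells (33920 to 76137). Gja1, the gap junction protein connexin 43, averaged 5943 ± 2207 against 5799 ± 2506 CPM. Slc1a2, the main glutamate transporter, averaged 4731 and 5123 CPM. Slc1a3, the other glial glutamate transporter, averaged 4202 and 3533 CPM. Tagln, whose promoter drives the Cre of these mice, reached 10 CPM in 1 cell of each group. Tagln is not the reporter itself, and whether these cells carried tdTomato was not tested.

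Markers of other cell types were found at similar rates on both sides. At least 3 markers of 1 other type were present in 17 of 46 positive cells (37.0%, 23.2 to 52.5%) and in 17 of 42 other cells (40.5%, 25.6 to 56.7%). Most of these rested on the oligodendrocyte list (14 and 12 cells), whose 12 genes had a summed level of 11.0 to 2635 CPM in positive and 5.23 to 2972 CPM in other cells. The neuron list had 3 markers in 4 positive and 3 other cells, the endothelial list in 1 and 3, the precursor list of oligodendrocytes in 1 and 2, and the microglial list in 1 cell of each. Of defining markers, Csf1r of microglia was at 10 CPM in 0 positive and 2 other cells, P2ry12 in 2 and 1, C1qa in 2 and 0, and Tmem119 in none. Cldn5 of endothelium was in 0 and 1, and Pdgfra of oligodendrocyte precursors in 0 and 2. The summed levels ranged from 0 to 1756 (mean 182) against 0 to 980 CPM (mean 127) for the microglial list, from 0 to 1623 against 0 to 2073 CPM for the neuron list, and from 2.56 to 373 against 3.68 to 999 CPM for the endothelial list. Counts made without the cells that held 3 such markers are given in the last section. Beyond that, the part of these markers in the results below was not tested.

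Reads of the relatives of Serpina3n were found in positive cells of plate 3 and not in the others. The files name 10 other genes of the Serpina3 cluster, and all 10 had 0 reads in the 42 other cells of plate 3. In the positive cells Serpina3m had 212 reads in 31 cells (184 to 243 reads), Serpina3f had 120 in 28 cells (99.5 to 143) and Serpina3c had 47 in 18 cells (34.5 to 62.5). Serpina3j had 4 reads and Serpina3b had 1, and the remaining 5 genes had none. At least 1 of Serpina3m, Serpina3f and Serpina3c was read in 32 of the 46 positive cells, and all 3 in 18. The 14 positive cells without any of them had 10 to 307 Serpina3n reads.

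These reads were few beside those of Serpina3n itself. For every 1000 reads of Serpina3n in the positive cells of plate 3 there were 25.5 of Serpina3m (22.2 to 29.1), 14.4 of Serpina3f (12.0 to 17.2) and 5.65 of Serpina3c (4.15 to 7.51), and 45.5 of the 3 together (41.1 to 50.4). In plate 2's positive cells Serpina3m and Serpina3f had 0 reads beside 1872 of Serpina3n, where 3 counts would be 1.60 per 1000 and the exact upper limit is 1.97, and Serpina3c had 1 read, or 0.53 per 1000 (0.01 to 2.98). The intervals of plate 3 lie above those of plate 2 for all 3 genes. On plate 2, Serpina3g had 18 reads in 1 positive cell and Serpina3j had 17 in 1 other cell.

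These genes are close copies, so their reads are uncertain. The reference transcript of Serpina3n is 2064 bases long and holds 2015 runs of 50 bases. Serpina3c transcripts contain 1.24% of these runs, Serpina3f transcripts 1.04% and Serpina3m transcripts 0.893%. Serpina3g transcripts contain 2.53%, the largest share, and 6.75% occur in at least 1 of the 10 relatives. Serpina3g had 0 reads on plate 3. The counts do not show where on a transcript the reads fell. How the authors' counting treated reads that fit several genes was not given in the sources used here. Whether the plate 3 reads come from the relatives or from Serpina3n was not tested.

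Serpina3n (ENSMUSG00000021091.8) lies on the plus strand of chr12:104406729-104414329 in GRCm38, the assembly that mm10 names. Serpina3m (chr12:104338486-104394257, plus strand), Serpina3f (chr12:104214544-104221129, plus strand) and Serpina3c (chr12:104146382-104153870, minus strand) lie beside it. The stretches of 250 bases before the RefSeq starts of 3 of these genes (GRCm38.p6) show how closely the genes are related just upstream of where the transcripts begin. They are shown for Serpina3n (chr12:104406458-104406707, plus strand), Serpina3c (chr12:104153873-104154122, minus strand) and the first of the starts listed for Serpina3f (chr12:104214294-104214543, plus strand). Capitals mark matches to the searched letters.
Serpina3n: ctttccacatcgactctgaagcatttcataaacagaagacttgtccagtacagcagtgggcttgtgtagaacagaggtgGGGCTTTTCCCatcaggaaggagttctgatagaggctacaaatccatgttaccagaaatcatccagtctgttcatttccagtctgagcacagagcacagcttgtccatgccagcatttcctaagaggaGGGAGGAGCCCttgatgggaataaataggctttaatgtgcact
Serpina3c: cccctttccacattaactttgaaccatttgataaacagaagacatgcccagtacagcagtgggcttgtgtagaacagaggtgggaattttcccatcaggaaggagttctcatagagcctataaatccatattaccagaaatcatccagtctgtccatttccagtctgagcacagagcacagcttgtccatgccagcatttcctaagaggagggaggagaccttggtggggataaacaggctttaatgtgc
Serpina3f: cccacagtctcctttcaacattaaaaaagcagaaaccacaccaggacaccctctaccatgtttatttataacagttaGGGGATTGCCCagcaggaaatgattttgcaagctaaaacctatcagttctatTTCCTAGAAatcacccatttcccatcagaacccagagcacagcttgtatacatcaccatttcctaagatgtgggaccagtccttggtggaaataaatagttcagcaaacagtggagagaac

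Serpina3c was identical to Serpina3n at 229 of 253 aligned columns (90.5%) and the shown Serpina3f window at 164 of 265 (61.9%). The window of the second Serpina3f start, not shown, was identical at 126 of 264 (47.7%). Other relatives lay between 44.9% (Serpina3a and Serpina3g) and 69.0% (Serpina3b). Serpina3m, the relative with most reads on plate 3, had no window among those searched. The letters GGGNNNNNCC, a loose form of the NF-kB motif, were searched on both strands. They were found at 2 places in the Serpina3n window, each matching on both strands with the copies overlapping. At one place the letters were GGGCTTTTCC starting 171 bases before the start, and at the other GGGAGGAGCC starting 43 bases before it. The Serpina3f window matched at 1 such place, again on both strands, and the Serpina3c window at none. So many promoters hold these letters (45.8% of 32851 windows) that a match says little. The letters TTCNNNGAA of STAT factors (7.02% of windows) were found once in the Serpina3f window and not in the other windows shown, and TGANTCA of AP-1 (6.75%) in none of the 3. A match is a description of the letters and not a binding site.

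Beyond this cluster, 14647 genes had a read on plate 3, and 4071 were frequent enough to compare. These had a mean of at least 20 CPM and were at 10 CPM or more in at least 20% of the 88 cells. They also had less than 25% of their summed CPM in any 1 cell. Each was described by its log2 ratio, the log2 of the mean CPM of positive cells over that of other cells after 10 CPM was added to both. The ratios were centred at 0.00, with quartiles of -0.38 and 0.35 and a range of -2.64 to 2.54. Past 2-fold (a log2 ratio of at least 1 in either direction) were 183 genes higher (4.5%) and 177 lower (4.35%) in positive cells, 360 in all (8.84%). A split of 88 cells into groups of these sizes carries no replicate check of its own.

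Plate 2 gave the same measure in other cells, and the signs of the ratios did not recur there more often than those of all genes. Of its 3992 compared genes, 140 (3.51%) were past 2-fold higher and 411 (10.3%) lower, 551 in all (13.8%), with 18 positive cells behind the means. Of the 282 genes past 2-fold on plate 3 and compared on both plates, 135 (47.9%) had the same sign on plate 2, against 1796 of all 3499 genes (51.3%). Genes higher on plate 3 were above 0 on plate 2 in 60 of 145 cases (41.4%), against 45.2% of all genes. Genes lower on plate 3 were below 0 on plate 2 in 75 of 137 cases (54.7%), against 54.8% of all genes. Across the 3499 genes, which are not independent replicates, the ratios of the plates had a Spearman rho of 0.03 and a Pearson r of 0.03.

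**Figure D2:**
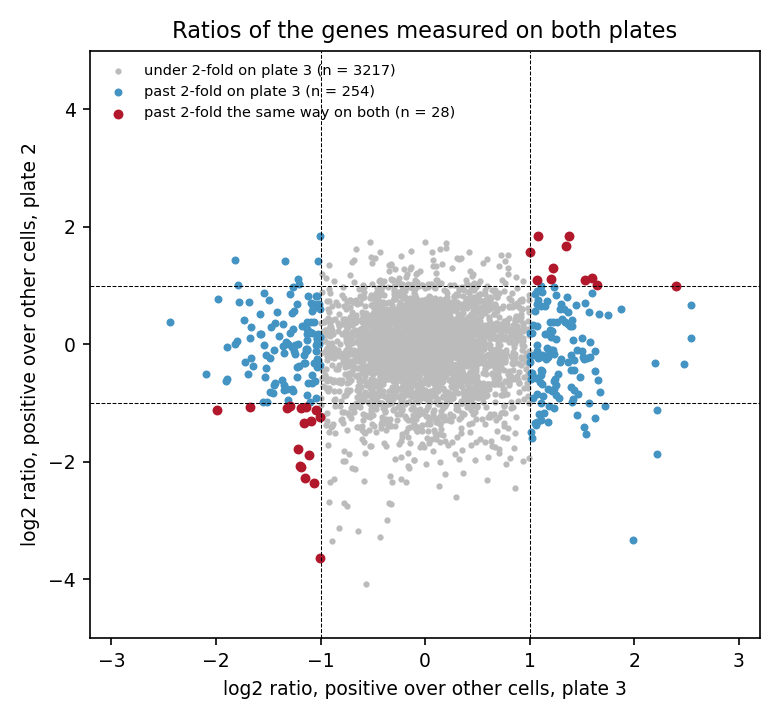
The log2 ratio of positive over other cells on plate 3 (horizontal) and plate 2 (vertical), 1 point for each of the 3499 genes compared on both plates, with dashed lines at 2-fold. Genes past 2-fold on plate 3 (blue) lie on both sides of 0 on plate 2, and 28 genes (red) are past 2-fold in the same direction on both.

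Genes past 2-fold were mostly read in few cells. By mean level, 8.10% of genes at 20 to 50 CPM were past 2-fold, 13.4% at 50 to 100 CPM, 8.11% at 100 to 200 CPM, 1.32% at 200 to 500 CPM, 1 of 118 at 500 to 1000 CPM and 0 of 92 at 1000 CPM or more. The 360 genes past 2-fold were detected in a median of 24 of the 88 cells, and for 322 of them the median cell was below 10 CPM in both groups. The 159 genes detected in at least 90% of the cells had ratios from -0.71 (Arglu1, a factor of transcription and splicing) to 0.83. The highest of these was Gpld1, a phospholipase that releases GPI-anchored proteins, at 1644 ± 1055 CPM (46.6, 1483 and 4469 as lowest, median and highest) against 920 ± 658 CPM (0, 849 and 2818). Its groups overlapped, and on plate 2 its ratio was 0.18.

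The highest ratio was that of Uba2, a subunit of the enzyme that activates SUMO, with means of 129 ± 232 CPM over the positive cells and 13.8 ± 46.2 CPM over the other cells. Detection was in 16 of 46 positive cells (34.8%, 21.4 to 50.2%) and 5 of 42 other cells (11.9%, 3.98 to 25.6%). Its log2 ratio was 2.54 on plate 3 and 0.67 on plate 2. Dirc2, a lysosomal membrane transporter, had the same ratio, with means of 133 and 14.6 CPM, detection in 20 and 5 cells, and 0.11 on plate 2. Next came Crk, a signalling adaptor (2.47, and -0.33 on plate 2), Cdk19, a kinase of the Mediator complex (2.40, and 1.00), and Ireb2, a regulator of iron metabolism (2.22, and -1.12). The other genes among the 12 highest were Gfm2, Lztr1, Rnf103, Yipf6, Pafah1b2, the copper transporter Slc31a1 and Abhd14a, with ratios down to 1.84. In each of the 12 both groups had cells without a read, and for all but Lztr1 the median of the positive cells was 0 CPM.

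At the other end Traf3ip1, a protein of primary cilia, averaged 14.3 ± 56.9 CPM over the positive cells and 142 ± 355 CPM over the other cells, a log2 ratio of -2.64, with 0.41 on plate 2. Its reads reached 10 CPM in 4 positive cells (8.70%, 2.42 to 20.8%) and 14 other cells (33.3%, 19.6 to 49.5%). Meis2, a homeobox transcription factor, averaged 20.7 against 156 CPM, with detection in 6 and 15 cells (-2.44, and 0.37 on plate 2). Cpeb1, a protein that binds messenger RNA tails, had 29.0 against 157 CPM (-2.10, and -0.51). Cyp26b1, which degrades retinoic acid, had 24.1 against 110 CPM (-1.81, and 0.01). The other genes among the 12 lowest were 4833424O15Rik, Nup98, Entpd6, Kdm3b, Bbs2, 2900052N01Rik, Stk38l and Arhgef4. When cells with 1 Serpina3n read were counted as positive, Stk38l turned from -1.81 to 1.53, and Entpd6 moved from -1.98 to -0.89.

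Past 2-fold in the same direction on both plates were 11 genes higher and 17 lower, or 0.314% and 0.486% of the 3499 genes compared on both. They were 11 of the 145 genes higher on plate 3 and compared on both, and 17 of the 137 lower. Of all 3992 compared genes of plate 2, 3.51% were past 2-fold higher and 10.3% lower. Those shares stand beside 11 of 145 and 17 of 137, not beside the shares of the 3499 genes. The higher genes were Cdk19, Ppp2r3a, Pttg1, Itsn2, Mfn2, Ext2, Man2a2, Vamp3, 1700084C01Rik, Anapc1 and Sox2ot. On plate 3, 1700084C01Rik was short of 2-fold under 6 of 11 other settings, Vamp3 and Anapc1 under 5 and Ext2 under 4. Cdk19 and Sox2ot were past it under all 11. Cdk19 averaged 105 ± 202 CPM over the positive and 11.7 ± 37.1 CPM over the other cells of plate 3, and was detected in 17 and 6 of them. Mfn2, a protein of mitochondrial fusion, had 85.2 against 21.5 CPM (1.59, and 1.13 on plate 2). Man2a2, an enzyme of N-glycan processing, averaged 171 ± 279 against 52.6 ± 123 CPM, with ratios of 1.53 and 1.09. Its detection was in 23 positive cells (50.0%, 34.9 to 65.1%) and 9 other cells (21.4%, 10.3 to 36.8%). Sox2ot, a long noncoding RNA that overlaps the stem cell factor Sox2, averaged 146 ± 228 against 39.7 ± 110 CPM (1.65, and 1.00) and was detected in 22 and 8 cells. How the counting assigned reads where genes overlap was not given in the sources used here. Whether the Sox2ot counts hold reads of Sox2 was not tested.

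The lower genes named by the rule were Nup98, Flii, Mycbp2, Snd1, Gclm, Slc25a44, Deb1, Dtx4, Vps39, Cct5, Ppp3r1, Qdpr, Psd3, Lancl1 and Phf20. On plate 3, Vps39, Psd3 and Phf20 were short of 2-fold under 4 of 11 other settings, and Flii and Lancl1 under 3. Nup98, Cct5 and Ppp3r1 were past it under all 11. Mycbp2, a ubiquitin ligase, was the most widely detected, in 30 positive and 28 other cells, at 173 ± 326 against 410 ± 778 CPM (-1.20, and -2.07 on plate 2). Gclm, the modifier subunit of the enzyme that starts glutathione synthesis, had 66.8 ± 148 against 161 ± 369 CPM (-1.16, and -1.34). Ppp3r1, the regulatory subunit of calcineurin, had 68.0 against 239 CPM (-1.68, and -1.07). Cct5, a subunit of the TRiC chaperonin, had 79.5 against 213 CPM (-1.32, and -1.08). In each of these genes the cells of the 2 groups overlapped, both having cells without a read.

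Among the 1048 compared genes detected in at least 50% of the cells, 7 were past 2-fold higher and 7 lower (0.668% each). Over all compared genes the shares were 4.5% and 4.35%. These genes were singled out after their values were seen. The higher were Sel1l, Pltp, Nnat, Slc23a2, Nacc2, Gdpd2 and Atp2c1, and the lower Tle2, Gnao1, Gpcpd1, Mycbp2, Ankrd11, Megf10 and Rev3l. On plate 2, 9 of the 14 had the same sign, beside 51.3% (1796 of 3499) of all genes compared on both plates. Slc23a2, a vitamin C transporter, was at 504 ± 424 CPM in the positive cells (0, 479 and 1315 as lowest, median and highest) and at 212 ± 269 CPM in the other cells (0, 8.01 and 899). It was detected in 35 of 46 (76.1%, 61.2 to 87.4%) and 21 of 42 cells (50.0%, 34.2 to 65.8%), with ratios of 1.21 on plate 3 and 0.23 on plate 2. Nnat, an imprinted gene for a small membrane protein, averaged 1098 ± 1272 against 457 ± 798 CPM, with 1.25 and 0.83. Sel1l, part of the machinery that clears misfolded proteins, averaged 257 against 76.4 CPM, but its ratio of 1.63 on plate 3 stood beside -1.25 on plate 2. Megf10, an astrocyte receptor for engulfing cell debris and synapses, averaged 113 against 303 CPM (-1.35, and -0.15).

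The genes whose levels went most closely with Serpina3n over the 88 cells were Dirc2 (Spearman rho 0.37), Sdc2 (0.36), Ankrd16 (0.36), Ntrk2 (0.36), Slc23a2 (0.35), C330007P06Rik (0.34), Mbnl1 (0.34) and Gpld1 (0.33). Over the 162 cells of plate 2 their rho lay between -0.08 and 0.12. Ntrk2, the BDNF receptor TrkB, averaged 2748 ± 1498 against 1783 ± 1063 CPM on plate 3, and 2791 against 2818 CPM on plate 2. The most negative were 4833424O15Rik (-0.36), Fah (-0.36), Malat1 (-0.34) and Traf3ip1 (-0.33). Fah, the last enzyme of tyrosine breakdown, was detected in 15 of 46 positive cells (32.6%, 19.5 to 48.0%) and 28 of 42 other cells (66.7%, 50.5 to 80.4%), and in 11 of 18 against 65 of 144 on plate 2. The cells share their plate and differ in depth, and these values are a description.

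Genes of reactive astrocytes were mostly too rare to compare. Of the 12 pan-reactive genes listed, which rise after several kinds of injury, 1 was compared. This was Gfap, the intermediate filament protein used to mark reactive astrocytes, with 84.6 ± 165 CPM (0, 0 and 586) against 58.1 ± 174 CPM (0, 0 and 809). It was detected in 13 of 46 positive cells (28.3%, 16.0 to 43.5%) and 6 of 42 other cells (14.3%, 5.43 to 28.5%), and the shares were the same after thinning. Its log2 ratio was 0.47 on plate 3 and -0.38 on plate 2, where it was detected in 4 of 18 and 9 of 144 cells. On plate 3 the ratio was past 2-fold under 1 of 11 other settings (to 1.02). The intervals of both shares on plate 3 overlap.

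The other pan-reactive genes were at 10 CPM in a few cells or none. Vim, another intermediate filament protein, was found in 6 positive and 3 other cells at 41.0 and 12.5 CPM. Aspg was found in 2 and 4 cells, Cd44 in 2 and 0, Lcn2 in 1 and 0, Osmr in 1 and 0, S1pr3 in 0 and 1, and Cp in 0 and 1. Steap4, Timp1, Hspb1 and Cxcl10 were at 10 CPM in no cell of either group. For 0 of 46 cells, 3 counts would be a share of 6.52%, and the exact upper limit is 7.71%.

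Of the 11 genes of the A1 list, described after systemic inflammation, 1 was compared, and of the 12 of the A2 list, described after ischaemia, 0. Amigo2, a cell adhesion protein, averaged 77.4 ± 225 CPM over the positive and 136 ± 339 CPM over the other cells (-0.74, and -0.32 on plate 2), with detection in 8 and 10 cells. Ggta1, an enzyme of surface sugars, was found in 6 positive (13.0%, 4.94 to 26.3%) and 1 other cell (2.38%, 0.06 to 12.6%), and Fbln5, a matrix protein, in 9 and 4. C3, the complement factor used to mark the A1 state, was at 10 CPM in 0 cells, and C4b was in 4 of each group.

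**Figure D3:**
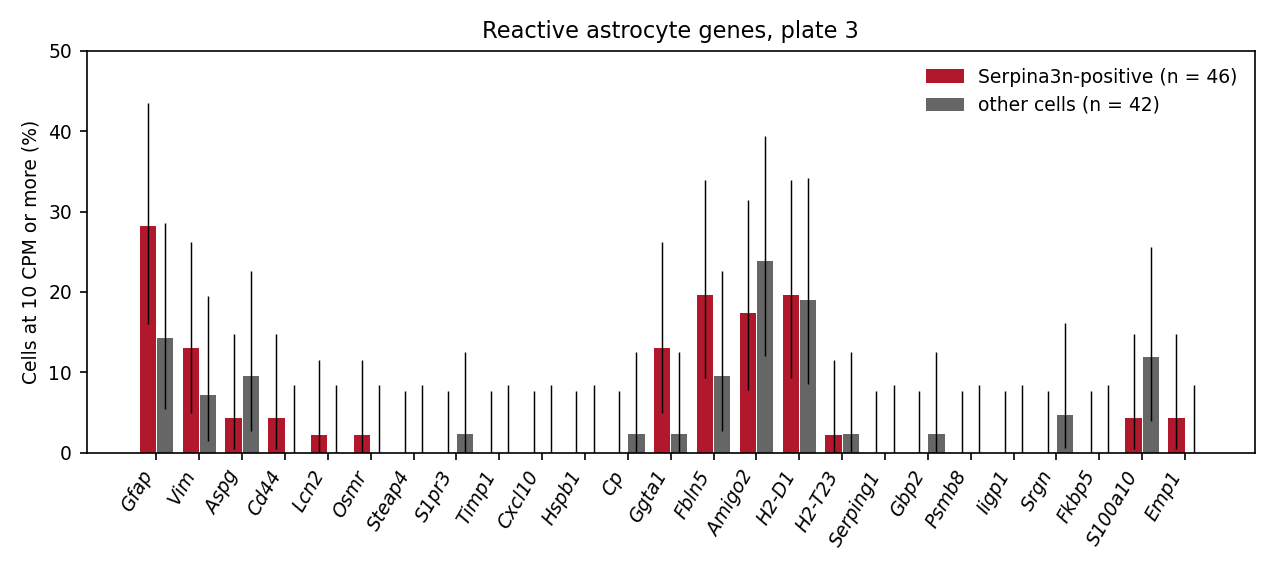
Share of positive cells (red, n = 46) and other cells (grey, n = 42) of plate 3 with each reactive astrocyte gene at 10 CPM or more, in percent; the lines are exact 95% intervals for counting error. Most genes are in few cells, and the intervals of Gfap (28.3 and 14.3%) overlap.

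The genes upstream of Serpina3n were split in direction. Of the 18 genes of the IL-6 family and STAT3 list, 4 were compared and none was past 2-fold under the settings used here. Lifr, a receptor of leukaemia inhibitory factor, averaged 320 ± 354 CPM (0, 169 and 1286) over the positive cells and 186 ± 376 CPM (0, 21.9 and 1707) over the other cells. Detection was in 32 of 46 (69.6%, 54.2 to 82.3%) and 22 of 42 cells (52.4%, 36.4 to 68.0%). Its log2 ratio was 0.76 on plate 3 and -0.76 on plate 2. Stat3, the transcription factor of the pathway, averaged 60.2 and 41.4 CPM (0.45, and 0.95 on plate 2), Cntfr, a ciliary neurotrophic factor receptor, had 0.04 and Jak1, a kinase of the pathway, had -0.35. Lifr and Stat3 were each past 2-fold under 1 of 11 other settings (to 2.00 and 1.38). Jak2, a kinase of the same kind, was too rare to compare at 42.1 against 5.63 CPM (11 and 4 cells). Socs3, a classic STAT3 target, was at 10 CPM in 1 cell of each group.

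The NF-kB and TNF list had 4 of 16 genes compared, with 1 past 2-fold lower, beside 8.84% of all compared genes past 2-fold either way. This was Nfkbia, the inhibitor that NF-kB itself induces, at 53.8 ± 90.2 against 125 ± 238 CPM (-1.08, and 0.05 on plate 2). It was short of 2-fold under 4 of 11 other settings (to -0.48). Tnfrsf1a, the TNF receptor, averaged 175 ± 202 against 101 ± 187 CPM (0.74, and -0.67). Under 1 of 11 other settings it was past 2-fold (to 1.65). The interferon and MHC class I list had 5 of 19 compared, with 1 past 2-fold higher, beside 8.84% of all compared genes past 2-fold either way. This was Irf3, a factor of interferon induction, with means of 77.7 ± 117 and 30.1 ± 76.0 CPM and ratios of 1.13 on plate 3 and -0.88 on plate 2. It was detected in 20 positive (43.5%, 28.9 to 58.9%) and 9 other cells (21.4%, 10.3 to 36.8%), and it fell below 2-fold under 4 of 11 other settings (to 0.67). B2m, the light chain of MHC class I, had 403 ± 354 against 299 ± 408 CPM (0.42, and -0.64). It was past 2-fold under 1 of 11 other settings (to 1.08). Each of Tnfrsf1a, Irf3 and B2m changed sign between the plates.

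Of 18 glucocorticoid response genes listed, 9 were compared. The ratios of 8 were below 0 and that of Tsc22d3 was above it, with a median of -0.36 against 0.00 over all compared genes, and -0.18 on plate 2. Nfkbia alone was past 2-fold lower, beside 4.35% of all compared genes. It is also in the NF-kB list, as Mt2 is in the metallothionein list and Glul in that of glutamate uptake, so these lists are not separate. Klf9 and Nr3c1, below 0 here, were above it under some other settings (to 0.03 and 0.22). Per1, a clock gene that glucocorticoids induce, averaged 38.8 against 71.0 CPM (-0.73, and -0.64 on plate 2), and Tsc22d3, a direct target of the receptor, averaged 346 against 262 CPM (0.39, and 0.09).

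Genes of the Gfap-high kind of astrocyte numbered 11 in the list, and 5 were compared. Past 2-fold higher was 1 of them, beside 4.5% of all compared genes. This was Cd9, a tetraspanin membrane protein, with means of 221 ± 306 CPM (0, 60.0 and 1286) over the positive and 79.5 ± 136 CPM (0, 0 and 435) over the other cells. It was detected in 25 of 46 (54.3%, 39.0 to 69.1%) and 14 of 42 cells (33.3%, 19.6 to 49.5%). Its ratio was 1.37 on plate 3 and 0.35 on plate 2. Id3, a regulator of differentiation, was detected in 28 and 15 cells while its means, 232 and 219 CPM, gave a ratio of 0.08. Fabp7, a fatty acid binding protein, had 277 against 253 CPM (0.13) and Igfbp5 had 141 against 157 CPM (-0.15). Id3, Fabp7 and Igfbp5 were each past 2-fold under 1 of 11 other settings (to 1.51, 1.09 and -1.02).

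Other inhibitors and proteases were near the level of all genes. Of 13 other serpins, 3 were compared, with a median of 0.15. Serpine2, an abundant inhibitor of thrombin in astrocytes, averaged 2290 ± 1089 against 2060 ± 1129 CPM. Of 19 proteases and further inhibitors, 8 were compared, with a median of 0.17 on both plates and none past 2-fold under the settings used here. Ctsl, a lysosomal protease, was the highest with means of 765 ± 461 and 529 ± 603 CPM (0.53, and 0.22 on plate 2) and detection in 46 positive and 34 other cells. Its ratio was past 2-fold under 1 of 11 other settings (to 2.02). Cst3, the protease inhibitor cystatin C, averaged 15589 ± 5355 against 14118 ± 5412 CPM.

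**Figure D4:**
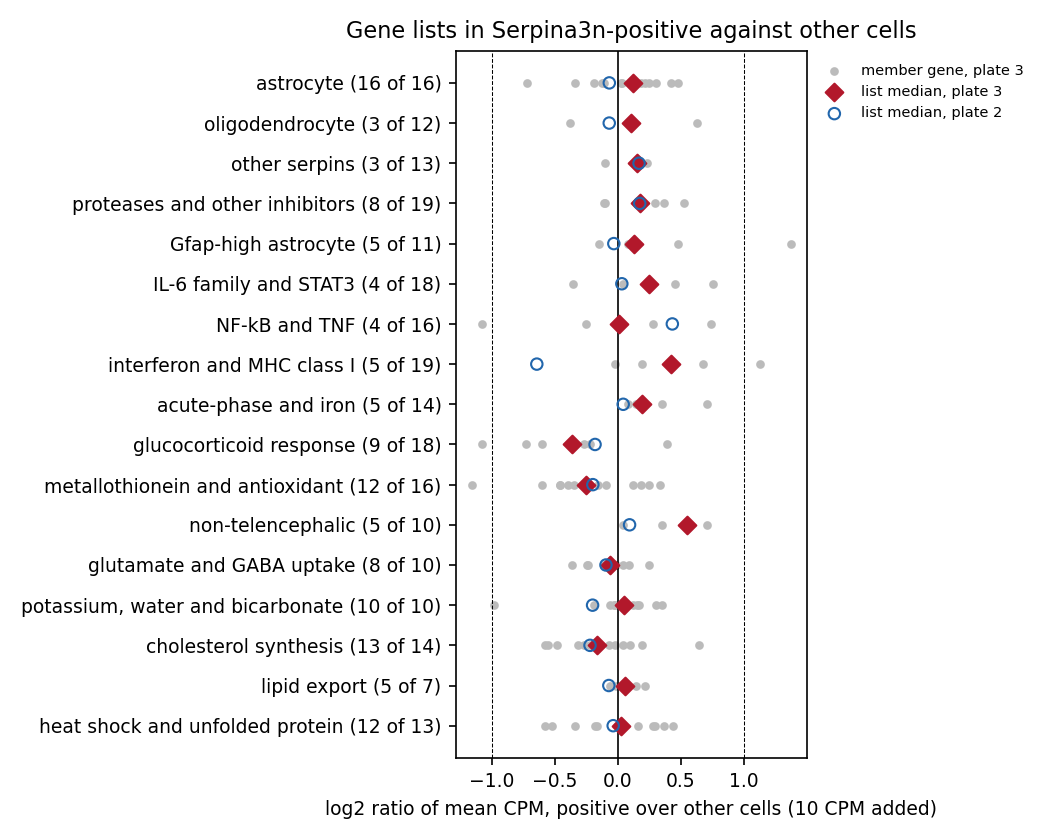
Log2 ratio of positive over other cells for the genes of each list with at least 3 compared genes (horizontal axis), with the number compared and listed at the left. Grey points are genes on plate 3, red diamonds their median and blue circles the median on plate 2; the dashed lines are 2-fold. Medians lie between -0.36 and 0.55 on plate 3, and those of the plates do not keep the same sign in every list.

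Among the lists with at least 3 compared genes, regional genes had the highest median on plate 3. Of 10 genes that mark astrocytes outside the telencephalon, 5 were compared and all 5 were above 0 (Slc6a11, at 0.04, had -0.05 under median-ratio scaling), with a median of 0.55 on plate 3 and 0.09 on plate 2. Itih3, a hyaluronan-binding matrix protein, averaged 5062 ± 4620 CPM (2.37, 3004 and 17810) against 3089 ± 2743 CPM (2.82, 2659 and 11814), with 0.71 and, on plate 2, 0.09. Sparc, a secreted matrix protein, averaged 3679 ± 2541 against 2476 ± 1323 CPM (0.57, and 0.19). Slc6a9, a glycine transporter, averaged 1275 ± 698 against 868 ± 626 CPM (0.55, and -0.02), and Agt, the precursor of angiotensin, 4927 ± 2772 against 3873 ± 2478 CPM (0.35, and 0.15). In these genes the groups overlapped over most of their range. The rare positional factors went either way, with Irx3 in 9 positive and 13 other cells and Zic1 in 3 and 0. Mfge8, which marks telencephalic astrocytes, had -0.30 on plate 3, which became 0.20 when cells with 1 Serpina3n read were counted as positive, and 0.18 on plate 2.

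Metallothioneins, which bind zinc and copper, had lower means in positive cells on both plates. Mt2 averaged 265 ± 204 CPM (35.9, 219 and 1033) against 407 ± 284 CPM (9.63, 345 and 1506), with -0.60 and, on plate 2, -0.18. Mt3 averaged 442 ± 240 against 612 ± 307 CPM (-0.46, and -0.22) and Mt1 1008 ± 582 against 1327 ± 650 CPM (-0.39, and -0.22). None of the 3 was past 2-fold, and the cells of both groups overlapped over most of their range. Of the 16 metallothionein and antioxidant genes, 12 were compared, 8 of them below 0, with medians of -0.25 and -0.20, beside -0.08 over all compared genes of plate 2. Beside these, Malat1 had a log2 ratio of -0.51 on plate 3 and 0.11 on plate 2.

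Genes of ordinary astrocyte work gave small ratios. Medians were -0.07 for glutamate and GABA uptake (8 of 10 genes compared), 0.05 for potassium, water and bicarbonate transport (10 of 10), -0.16 for cholesterol synthesis (13 of 14) and 0.02 for heat shock and unfolded protein genes (12 of 13), with no gene past 2-fold in any of these lists under the settings used here. Each of these 4 medians changed sign under at least 1 other setting. Acute-phase and iron genes had 0.19 (5 of 14 compared, and 0.04 on plate 2), and lipid export genes had 0.06 (5 of 7, and -0.07). The 5 acute-phase and iron genes were above 0, but Fth1 reached -0.11 and Ftl1 just below 0 under other settings, and Agt and Itih3 are also in the non-telencephalic list. Clu, a secreted chaperone and the only compared gene of the complement list, averaged 9563 ± 4917 against 8244 ± 3488 CPM (0.21, and -0.07). Car2, a carbonic anhydrase, came nearest at 307 ± 412 CPM (0, 175 and 1826) against 615 ± 623 CPM (0, 499 and 2417), with -0.98 on plate 3 and -0.57 on plate 2. Under 6 of 11 other settings Car2 was past 2-fold (to -1.76). Sqle, Dhcr7, Pdia4, Pdia6, Hsp90b1 and Dnajb9 of these lists were past it under 1 or 2. S100b, a calcium-binding protein of astrocytes, averaged 257 ± 301 against 431 ± 564 CPM (-0.72, and -0.16). Aqp4, the water channel of the endfeet, averaged 2227 ± 1557 against 2543 ± 1797 CPM (-0.19, and -0.17). Stmn2, a marker of neurons, was past 2-fold lower at 18.8 against 60.7 CPM (-1.29), with 0.19 on plate 2, and was short of 2-fold under 3 of 11 other settings (to -0.69).

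**Figure D5:**
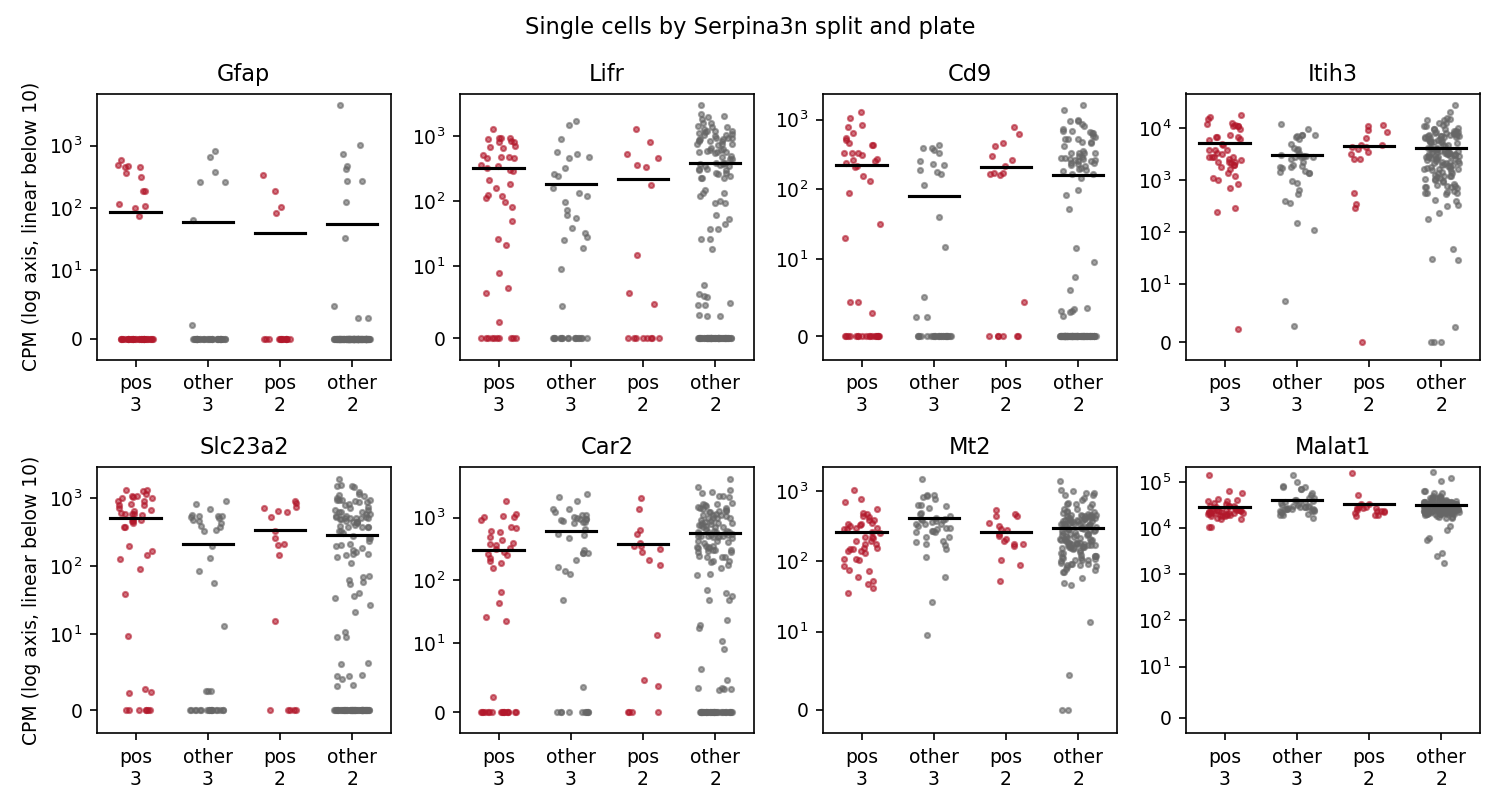
CPM of 8 genes in single cells (log axis, linear below 10), positive cells in red and other cells in grey, for plate 3 and plate 2; black lines are means. The cells of both groups overlap in every panel, with Cd9 at 221 against 79.5 CPM and Car2 at 307 against 615 CPM on plate 3.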

How the data were processed

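Single cells of mouse brain were profiled with Smart-seq2, each cell a sample of its own. The deposited table holds whole-number read counts per gene, which per the file's own values were not normalized. Its 24490 gene rows and all cells were used. The aligner STAR 2.4.2a and the build mm10 are listed in the submitters' processing notes. Counting tool, strand setting, annotation and cell filter were not given in the sources used here. A second deposited table, of values scaled by the authors, was not used.

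Counts were scaled to CPM by the column sum with numpy 2.4.6 and pandas 2.3.3 under Python 3.11.15, intervals came from scipy 1.17.1 and plots from matplotlib 3.10.9. Serpina3n itself was left out of the ratios. Their code was run on simulated counts with known changes and a spread not fitted to these data, which does not check the genes named here. No count model was fitted, because the labels name no animal. No cell was removed and no doublet caller was run, since cells were sorted into single wells; cells that hold markers of other types were counted instead. Cells were thinned to 100000 reads at random for the detection comparison. Gene positions are from GENCODE M21 (GRCm38) and promoter windows from RefSeq.

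The groups, the 33 gene lists (350 genes) and the measures were chosen with earlier results of these data known. Text names Serpina3n and its relatives, the 12 highest and 12 lowest ratios, up to 15 genes a direction past 2-fold on both plates, list members, and the 8 highest and 4 lowest rho with Serpina3n. Other thresholds, scalings, filters, added CPM and sets of cells were tried.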

Additional observations from a re-analysis of the deposited data

How the results depend on the processing

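Under 13 other settings the number of genes past 2-fold moved with how the ratio was made. Beside 183 higher and 177 lower genes, 50 CPM added gave 39 and 37, no filter beyond 1 read gave 1055 and 1048, and detection in 50% of cells gave 7 and 7. The difference of mean log2(CPM + 1), which shifts the median of all compared genes to 0.23, gave 595 higher genes and 75.7% of calls higher, in place of 50.8%. Leaving out the highest cell of each gene and group gave 289 higher (60.5%), and leaving out cells with 3 markers of another type, which keeps 29 positive and 25 other cells, gave 341 (61.1%) and a difference of 315 genes detected per cell in place of 175.5. The share with the same sign on plate 2 was 47.9%, and 80% (8 of 10) with detection in 50% of cells, where few genes are left. There the filter held on both plates, which left 10 of the 14 genes named above. Under the other settings the share lay between 45.8 and 52.2%. Of 55 genes past 2-fold under the naming rule, 26 were so under all 11 settings that can move a ratio. Reversed among the 55 was Stk38l alone (1.53 with positive cells set at 1 read). Genes named only for their detection in 50% of cells were not followed gene by gene. Lcat (-0.06) and Olig2 (-0.47) were not past 2-fold here but passed it with the other sign. Lcat reached 1.43 with the mean log difference and Olig2 1.17 without the cells with other markers. The cause of these shifts was not tested. No paired analysis was possible because all cells form 1 group and the labels name no animal. Depth limits genes at a few reads per cell, and 1 sample per plate limits everything else.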
